A study of Mus musculus with 6 samples.

Results

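The Clec4 genes described here are 8 mouse genes for C-type lectin receptors that lie in one cluster on a chromosome: Clec4a1, Clec4a2, Clec4a3, Clec4a4, Clec4b1, Clec4d, Clec4e and Clec4n. They were taken by symbol from a platform annotation that gives each probe set its gene, and where a gene had several probe sets the brightest on average would have been chosen by its mean over the 6 arrays. Each of the 8 had 1 probe set, so that mean decided nothing among them. They are 8 of 22180 genes with a probe set that names 1 gene. The genes were put forward with results of these arrays in view, so their differences are given as a description and the tests on them are not independent support.

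The arrays measured RNA of LT-HSC (long-term haematopoietic stem cells), bone marrow cells that can rebuild all blood lineages, sorted by flow cytometry 4 months after a bone marrow transplant in mice of the strain labelled C57/BL6. The 3 control arrays hold RNA of pools of control animals, and the 3 NPMc+ arrays hold RNA of pools of animals expressing the NPMc+ mutant of nucleophosmin, a form that moves to the cytoplasm in human leukaemia. All groups share the transplant, about 5 ng of total RNA per labelling reaction and the same amplification. The labels used here do not give the promoter or locus that drove the mutant, what the control animals carried, the number of animals per pool or the sort gate. The title names stem cell dormancy and unrestricted self-renewal as the study's subject.

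Many C-type lectin receptors are membrane proteins of myeloid cells that bind sugars and lipids of microbes or of damaged cells. The cluster holds receptors of opposite effect: some recruit phosphatases through an inhibitory motif of their own tail, and others have a short tail and pair with the Fc receptor gamma chain (Fcer1g), which activates the kinase Syk and the adaptor Card9. These genes are known from monocytes, macrophages, neutrophils and dendritic cells, lineages that a stem cell sort is meant to exclude.

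Promoter sequence is shown for the members with the most even and the largest difference, Clec4a1 and Clec4a3, and for Clec4e, which had the smallest difference among the tested members. Each run holds the 250 bases before a transcript start in RefSeq (GRCm38.p6), written 5′ to 3′ on the gene's strand. The Clec4a1 run is chr6:122921598-122921847 (plus strand), that of the second of the Clec4a3 starts is chr6:122952394-122952643 (plus strand) and that of Clec4e is chr6:123289872-123290121 (minus strand). Capitals mark letters of 4 motifs searched on both strands: the core of the myeloid factor PU.1 (GAGGAA), a joint site of PU.1 and interferon regulatory factors (GGAA, any 2 letters, GAAA), a C/EBP site (TTGCNNAA) and a TATA box (TATAAA).
Clec4a1: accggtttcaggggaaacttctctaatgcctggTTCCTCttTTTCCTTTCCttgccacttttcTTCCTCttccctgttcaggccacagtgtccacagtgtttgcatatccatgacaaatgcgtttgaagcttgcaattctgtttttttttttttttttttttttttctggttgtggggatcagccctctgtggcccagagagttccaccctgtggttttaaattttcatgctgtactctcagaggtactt
Clec4a3: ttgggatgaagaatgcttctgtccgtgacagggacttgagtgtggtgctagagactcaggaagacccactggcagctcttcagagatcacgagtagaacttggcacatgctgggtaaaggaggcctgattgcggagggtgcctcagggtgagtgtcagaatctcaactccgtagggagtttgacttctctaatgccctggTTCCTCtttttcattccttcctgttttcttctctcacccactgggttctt
Clec4e: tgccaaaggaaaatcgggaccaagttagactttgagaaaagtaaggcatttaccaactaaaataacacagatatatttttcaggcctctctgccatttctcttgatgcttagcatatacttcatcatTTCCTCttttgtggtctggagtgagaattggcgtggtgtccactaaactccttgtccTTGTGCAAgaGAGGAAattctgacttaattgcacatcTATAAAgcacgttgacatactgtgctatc

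Of the 8 members, 6 had a promoter in the RefSeq table used, with 7 windows of 300 bases (250 before and 50 after the start). The PU.1 core stood in 5 of these 7 windows, against 28.3% of all 32851 such windows. The 7 are not separate cases, as the Clec4a3 windows overlap each other and the members are relatives. The windows without it were those of Clec4a2 and of the first Clec4a3 start, and the latter held none of the 4 motifs. The joint site stood in the Clec4a1 window and in no other member's, against 2.72% of all windows. The C/EBP site stood in the Clec4e window, against 10.8%, and the TATA box in those of Clec4a2 and Clec4e, against 13.6%. Counted from the transcript start, the TATA letters began at base -161 in Clec4a2 and at base -29 in Clec4e. The PU.1 core matches may overlap other motifs, and the motifs were chosen after the values had been seen. A match describes letters and does not show binding.

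Clec4a1 and Clec4a3 also shared a run of 17 letters, cctggttcctctttttc, which contains a PU.1 core on the minus strand. Counted from the transcript start, it began at base -222 in Clec4a1 and at base -55 in the second window of Clec4a3. Among the 32851 windows, 2 held it, those of these 2 genes. It was the longest run shared by the windows of any 2 members, and the next longest was 12 letters. The members are relatives that arose by duplication, and the window of Clec4a4 was not analysed here.

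Values are log2 expression as the authors deposited them (RMA), so that 1 unit is a doubling, and differences are NPMc+ minus control. In these values the mean of control and NPMc+ is the same in same-numbered pairs 1, 2 and 3 for every probe set, within 0.001 log2 units. High control values therefore always face low NPMc+ values of the same number, and the groups of a gene do not overlap exactly when its 3 differences have 1 sign. What varies freely is the difference within each pair. The SD inside a group follows from these differences, is the same in control and NPMc+, and does not measure the spread among pools. The number of arrays limits the precision. The series text calls the replicates biological, and each is a pool.

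All 8 members had a negative mean difference, as had 45.1% of the 16635 genes tested. The size ran from -2.62 log2 units for Clec4a3 to -0.14 for Clec4b1. In 4 of the 8, Clec4a1, Clec4a3, Clec4d and Clec4e, every pair was lower in NPMc+, against 15.4% of all 22180 genes on the array (12.8% of the genes tested). Of the 8, 6 passed a filter that leaves out genes with a mean over the 6 arrays below the 25th percentile. For these, limma with the replicate number as a block gave 0 calls at an adjusted p under 0.05, where 0% of genes tested passed. At an unadjusted p under 0.05, 2 of the 6 were lower in limma, against 3.02% of genes tested lower and 5.95% higher. Without the block, 2 of the 6 were lower at a limma adjusted p under 0.05, against 1.63% of genes tested. That fit ignores how the pairs are tied and so overstates precision. The median of the 6 differences was -0.66, against 0.03 over all genes tested.

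**Figure D1:**
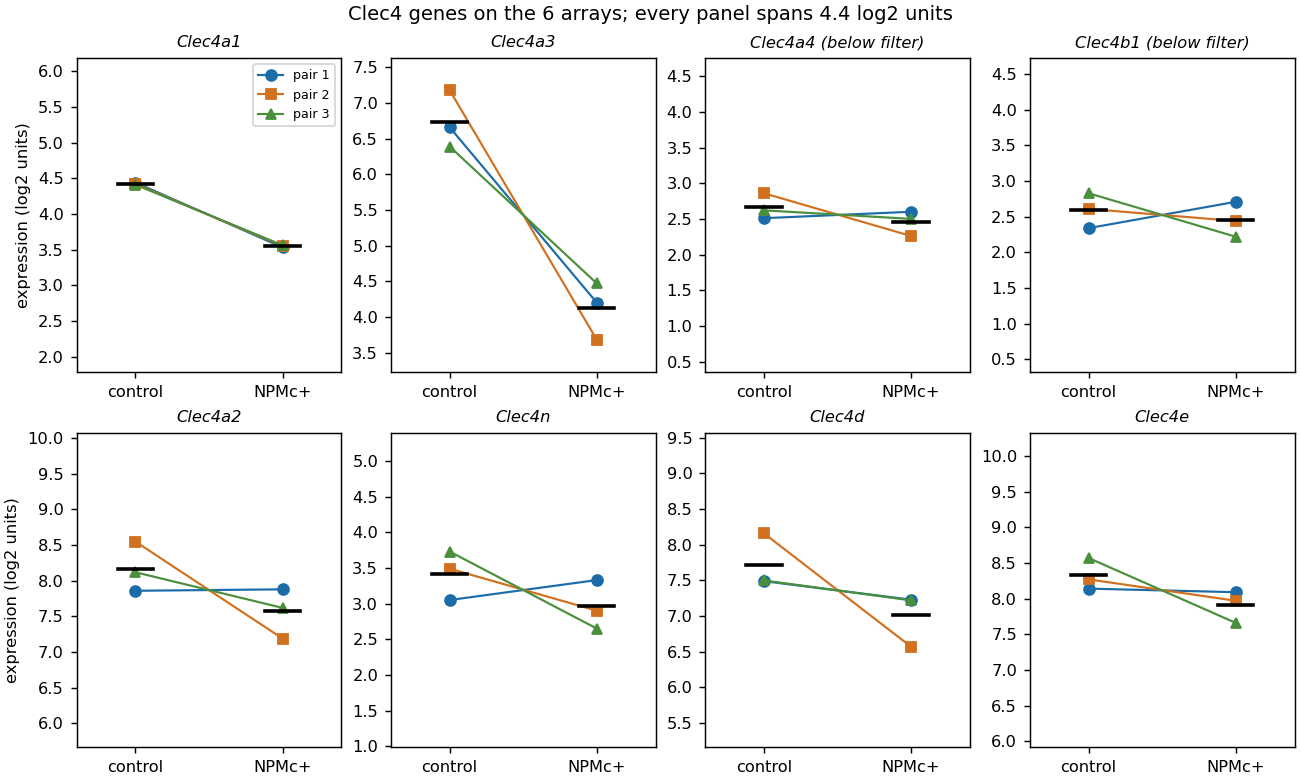
Log2 expression (vertical axis) of the 8 Clec4 genes on control and NPMc+ arrays; each coloured line joins the arrays of 1 pair, black bars are group means of 3 arrays, and all panels span the same range. Clec4a3 runs from control values of 6.39 to 7.18 down to 3.68 to 4.47, Clec4a1 shows nearly the same line in each pair, and the lines of Clec4a2, Clec4a4, Clec4b1 and Clec4n do not all slope the same way.

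Clec4a3, also named Dcir3, encodes a lectin of the dendritic cell immunoreceptor group (probe set 17462738). It read 6.66, 7.18 and 6.39 log2 units in controls 1, 2 and 3, and 4.20, 3.68 and 4.47 in NPMc+ 1, 2 and 3. The lowest control value lay well above the highest NPMc+ value. The means were 6.74 ± 0.40 and 4.12 ± 0.40 (SD, n = 3, mirrored between the groups), and the pair differences were -2.46, -3.50 and -1.91. The mean difference was -2.62 ± 0.31 (SE; 95% interval -3.37 to -1.88), or 6.16-fold lower, with a limma adjusted p of 0.245. Counted from the lowest difference it had rank 5 among the 16635 genes tested (0.024% of genes were lower still), and 0.92% of genes tested were at least 2-fold lower. Without pair 3 the difference was -2.98 and passed in limma (adjusted p 0.0255), as 1 of 24 genes that did so on the pairs left. Without pairs 1 and 2 in turn it was -2.71 and -2.19 (limma adjusted p 0.507 and 0.260). The limma adjusted p without the replicate block was 0.0146, but that fit ignores how the pairs are tied and overstates precision.

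Clec4a1, or Dcir4, lies next to Clec4a3 and belongs to the same group (probe set 17462729). Its control values were 4.44, 4.42 and 4.41 and its NPMc+ values 3.53, 3.55 and 3.56, so the groups did not overlap. The small spread inside each group mirrors that of the pair differences. The pair differences were -0.92, -0.87 and -0.85, with an SD of 0.03. This was the most even difference among the members. The mean of -0.88 ± 0.17 (SE; 95% interval -1.30 to -0.46) was 1.84-fold lower, with a limma adjusted p of 0.331. The limma fit without the replicate block, which overstates precision, gave an adjusted p of 0.00831. The SE with the block is larger than the spread of the gene's own 3 pairs because limma draws it towards that of all genes.

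Clec4a2, or Dcir1, encodes the receptor DCIR, which carries the inhibitory motif (probe set 17462764). The controls read 7.86, 8.55 and 8.12 and the NPMc+ arrays 7.88, 7.19 and 7.62. Pair 1 was level, at 0.03, and pair 2 differed most, at -1.36, with -0.49 in pair 3; the groups overlapped. The mean was -0.61 ± 0.28 (SE; 95% interval -1.29 to 0.07; limma adjusted p 0.603), and -0.23 without pair 2. Clec4a4, or Dcir2, the other member known to carry the inhibitory motif and a marker of a dendritic cell subset, was below the filter. It read 2.51, 2.86 and 2.62 in controls and 2.60, 2.26 and 2.50 in NPMc+. Its pair differences of 0.09, -0.61 and -0.11 had both signs.

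Clec4d, also called MCL, pairs with the gamma chain and works together with Clec4e (probe set 17462796). Its control values were 7.49, 8.16 and 7.50 and its NPMc+ values 7.23, 6.57 and 7.22. The groups did not overlap, but in pairs 1 and 3 the arrays were close, with differences of -0.26 and -0.28 against -1.59 in pair 2. The mean was -0.71 ± 0.30 (SE; 95% interval -1.43 to 0.01; limma adjusted p 0.560), and -0.27 without pair 2.

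Clec4e, also called Mincle, is the receptor for the mycobacterial cord factor (probe set 17470627). The control arrays gave 8.14, 8.27 and 8.57 and the NPMc+ arrays 8.09, 7.97 and 7.66. Here pair 3 differed most, at -0.91, against -0.05 and -0.29 in pairs 1 and 2. The mean was -0.42 ± 0.22 (SE; 95% interval -0.95 to 0.12; limma adjusted p 0.649), and -0.17 without pair 3.

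Clec4n, also called dectin-2, binds mannans of fungi (probe set 17462788) and was just inside the filter, with a mean of 3.19 against the lowest tested mean of 3.01. It read 3.05, 3.49 and 3.73 in controls and 3.33, 2.90 and 2.65 in NPMc+, with pair differences of 0.28, -0.59 and -1.08. Pair 1 thus went the other way and the groups overlapped; the mean was -0.47 ± 0.28 (SE; 95% interval -1.14 to 0.21; limma adjusted p 0.690), and -0.84 without pair 1 and -0.16 without pair 3. Clec4b1, known as DCAR, an activating relative of the DCIR group, was below the filter like Clec4a4. Their means were 2.53 and 2.56. The controls of Clec4b1 read 2.34, 2.61 and 2.83 and the NPMc+ arrays 2.71, 2.44 and 2.22. Its pair differences were 0.37, -0.17 and -0.61, and without pair 3 its mean changed sign, to 0.10.

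The members thus differed among themselves in which pair carried the difference. Pair 2 had the largest negative difference in Clec4a2, Clec4a3, Clec4a4 and Clec4d, pair 3 in Clec4b1, Clec4e and Clec4n, and pair 1 in Clec4a1, where the pairs were nearly equal. Pair 1 had the smallest difference, or one above 0, in Clec4a2, Clec4a4, Clec4b1, Clec4d, Clec4e and Clec4n. Without pair 1 all 8 members were lower in every pair left, but the share of all genes that were so was not counted. Pair 1 is the pair in which Clec4a2, Clec4a4, Clec4b1 and Clec4n were above 0, so leaving it out favours that count. Probe sequences were not analysed here, so hybridisation between these related genes was not tested.

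In chromosome order the members run Clec4a1, Clec4a3, Clec4a4, Clec4b1, Clec4a2, Clec4n, Clec4d and Clec4e. Clec4b2, an activating relative of Clec4b1, lies between Clec4a2 and Clec4n; it is not among the 8 genes. It read 4.37, 5.48 and 5.20 in controls and 5.82, 4.71 and 4.99 in NPMc+, with pair differences of 1.45, -0.77 and -0.22 and a mean of 0.15 ± 0.41 (SE; limma adjusted p 0.944). Of 9 protein-coding genes outside the list within 250000 bases of the members, 8 had a probe set, and 5 of these passed the filter. In limma 0 of the 5 were lower and 0 higher (unadjusted p under 0.05). Next to Clec4a1, Necap1, an endocytosis gene, had pair differences of 0.41, -1.59 and -0.22. C3ar1, the receptor for the complement fragment C3a, was below the filter and had -0.20, -0.02 and -0.29. The transcription factor gene Foxj2 and the glucose transporter gene Slc2a3 differed by 0.32 ± 0.27 and 0.11 ± 0.19 (SE). Nanog, a pluripotency gene, differed by 0.05 ± 0.18, and the vomeronasal receptor genes Vmn2r19 and Vmn2r20, at the far end, were below the filter, at -0.14 and 0.29.

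**Figure D2:**
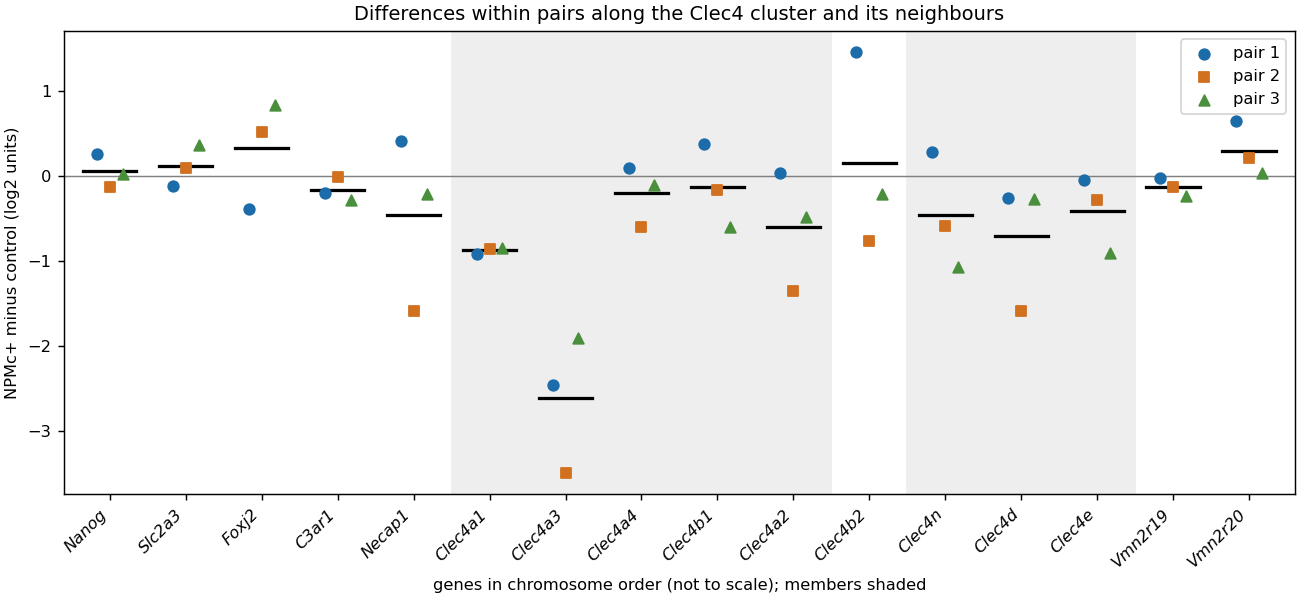
Difference between NPMc+ and control in log2 units (vertical axis) within each of the 3 pairs, for genes with a probe set in chromosome order; black bars are means of 3 pairs and shading marks the 8 members. Clec4a1 and Clec4a3 stand below 0 in every pair next to Necap1, whose pairs have both signs, and Clec4b2 reaches 1.45 in pair 1.

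The label of the cells was set against stem cell markers. Of 12 LT-HSC markers, 10 had a probe set; 5 of these were higher and 0 lower in limma (unadjusted p under 0.05), and the mean level over the list was 6.08 to 6.19 in controls and 6.61 to 6.72 in NPMc+. Npm1 itself differed by -0.03, -0.30 and -0.24 within pairs, and the labels do not say whether its probe set reads the mutant. The transcript Xist, made from an inactive X chromosome, differed by -5.44, -5.39 and 0.48, so the pools of pairs 1 and 2 differed in it and those of pair 3 much less. In pairs 1 and 2 whatever lies behind the Xist difference cannot be told apart from NPMc+. Its part in the member differences was not tested.

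Markers of the cell types that carry Clec4 receptors were measured beside the members. Of 12 neutrophil markers, 8 were lower and 0 higher in limma (unadjusted p under 0.05), and the mean level over the list was 9.63 to 10.45 in controls and 8.81 to 9.63 in NPMc+. Their median difference was -1.74 in pair 1, -1.25 in pair 2 and -0.01 in pair 3. Single neutrophil markers ran from -0.42 to 0.32 in pair 3. Of 13 monocyte and macrophage markers, 12 had a probe set; 3 were lower and 0 higher, the mean level was 7.59 to 7.78 in controls and 7.27 to 7.46 in NPMc+, and the pair medians were 0.01, -0.49 and -0.45. Single monocyte and macrophage markers ran from -1.02 to 0.54 in pair 1. The 6 tested members had medians of -0.15, -1.12 and -0.88 in pairs 1, 2 and 3.

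Of 8 dendritic cell markers, 2 were lower and 0 higher in limma (unadjusted p under 0.05), with mean levels of 5.15 to 5.18 in controls and 4.86 to 4.89 in NPMc+ and pair medians of -0.38, -0.35 and -0.16. Markers of granulocyte-monocyte precursors, 5 in all, had 0 lower and 0 higher, mean levels of 10.48 to 10.84 and 10.61 to 10.96, and pair medians of 0.55, 0.24 and -0.18. For eosinophil, basophil and mast cell markers, 1 of 7 was lower and 0 higher, with pair medians of 0.67, 0.62 and -0.82. B cell markers had pair medians of -1.25, -1.21 and -1.86 (5 of 7 lower), T and NK cell markers -0.37, -0.33 and -1.35 (3 of 7 lower, 1 higher), and erythroid markers -1.04, -0.56 and -0.88 (5 of 6 lower). The part of these cell types in the Clec4 differences was not tested, and in a sorted bulk sample fewer cells of a type and less RNA per cell cannot be told apart.

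**Figure D3:**
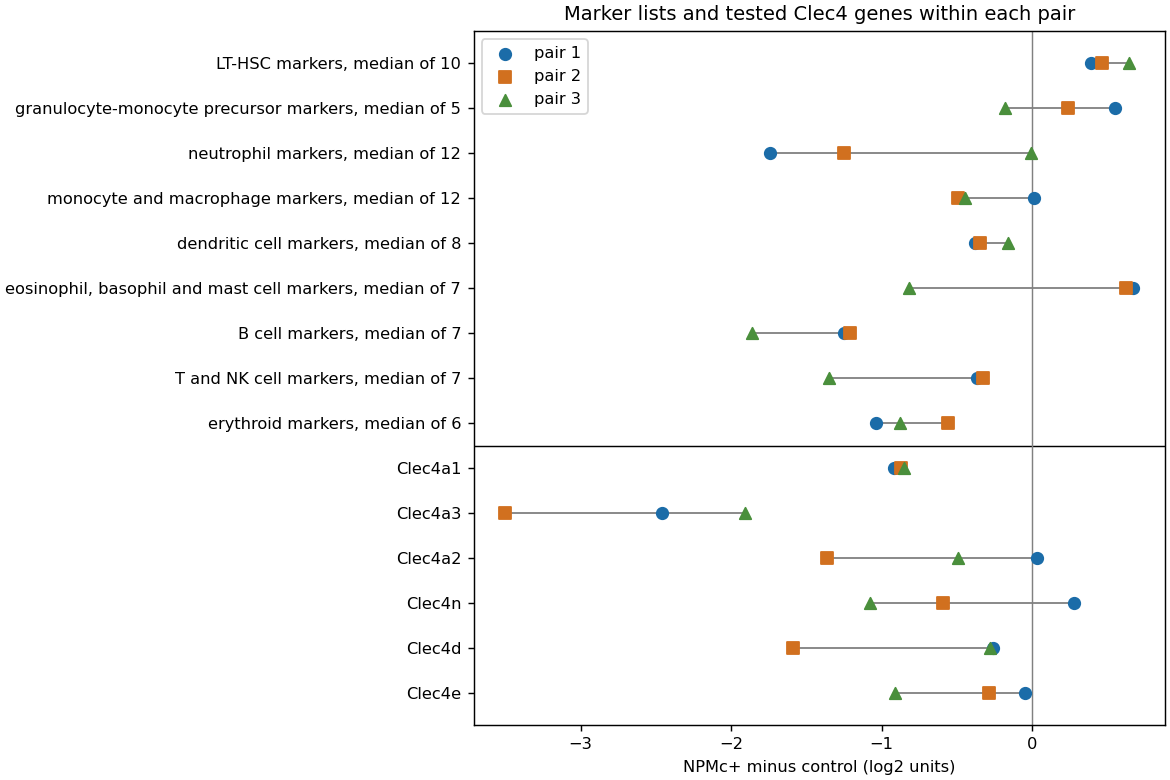
Difference between NPMc+ and control in log2 units (horizontal axis) within pairs 1, 2 and 3, as the median over each marker list (above the line) and for the 6 tested Clec4 genes (below it). Neutrophil markers lie at -1.74 and -1.25 in pairs 1 and 2 and at -0.01 in pair 3. The 3 points of Clec4a1 lie within -0.92 to -0.85 and those of Clec4d within -1.59 to -0.26.

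Other C-type lectin receptor genes, outside the cluster, had differences on both sides of 0. Their list was not restricted to genes of myeloid cells. Of 20 listed, 19 had a probe set and 15 were tested: 8 had a negative and 7 a positive difference, with a median of -0.01, and 2 were lower and 0 higher in limma (unadjusted p under 0.05). These 2 were Clec7a, or dectin-1, the receptor for fungal beta-glucan, and Cd302. Clec7a read 7.49, 8.34 and 7.07 in controls and 6.45, 5.59 and 6.86 in NPMc+. Its largest difference was in pair 2, at -2.75, against -1.04 and -0.22, with a mean of -1.34 ± 0.45 (SE; limma adjusted p 0.479). Cd302 differed by -0.51, -1.03 and -0.90, with a mean of -0.81 ± 0.19 (limma adjusted p 0.371). Clec10a and the scavenger receptor gene Olr1 differed by -0.72 ± 0.33 and -0.43 ± 0.22 (SE). With the filter at the 50th percentile the median of the list was -0.19.

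Genes of the shared signalling route had differences of both signs. Of 17 listed, 14 were tested; 6 were negative and 8 positive, the median was 0.11, and 1 was lower and 0 higher in limma (unadjusted p under 0.05). Fcer1g, the gamma chain with which Clec4d, Clec4e and Clec4n pair, read 9.74, 9.84 and 9.81 in controls and 9.58, 9.49 and 9.51 in NPMc+. The difference was small but of 1 sign in the 3 pairs, at -0.27 ± 0.18 (SE; 95% interval -0.69 to 0.16; limma adjusted p 0.725). Syk differed by 0.30 ± 0.19 and Card9 by 0.20 ± 0.22 (SE), each with pair 2 below 0 and pairs 1 and 3 above. The 1 lower gene was Fgr, a Src family kinase of myeloid cells, at -0.77 ± 0.30 (limma adjusted p 0.531). Rela, a subunit of NF-kB, differed by 0.45 ± 0.24, Malt1, the partner of Card9, by -0.39 ± 0.24, and Vav1, an exchange factor downstream of Syk, by 0.32 ± 0.21 (SE), higher in 3 of 3 pairs. The effectors of inhibitory receptors, Ptpn6, Ptpn11 and Inpp5d, differed by 0.28 ± 0.24, -0.04 ± 0.21 and 0.37 ± 0.23 (SE), with 0 of 3 lower and 0 higher.

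Among 14 genes known to be induced through these receptors, 4 were lower and 0 higher in limma (unadjusted p under 0.05), 10 were negative and 4 positive, and the median was -0.08. Il1b, the gene of interleukin-1 beta, read 9.15, 9.55 and 8.02 in controls and 5.83, 5.43 and 6.95 in NPMc+. Its groups did not overlap, and its mean difference of -2.84 ± 0.53 (SE; limma adjusted p 0.296) was near that of Clec4a3. Nlrp3, the inflammasome sensor, differed by -1.0, -1.24 and -0.92 (mean -1.05 ± 0.18, limma adjusted p 0.269). The chemokine gene Cxcl2 and Il6 differed by -1.09 ± 0.25 and -1.28 ± 0.50 (SE), Il6 with pair 1 at 0.18.

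Of 10 myeloid transcription factor genes, 2 were lower and 0 higher in limma (unadjusted p under 0.05), with a median of -0.05. Spi1, which encodes PU.1, read 8.14, 8.35 and 8.41 in controls and 8.46, 8.24 and 8.19 in NPMc+, a mean difference of 0.00 ± 0.20 (SE; 95% interval -0.47 to 0.47). The 2 lower genes encode interferon regulatory factors that bind joint sites with PU.1. Whether either factor has a part in the member differences was not tested. Irf4 differed by -1.19, -1.96 and -1.60 (mean -1.59 ± 0.21, limma adjusted p 0.245), and Irf8 by -0.48, -1.65 and -0.25 (mean -0.80 ± 0.30, limma adjusted p 0.514). Gfi1 and Cebpe, factors of granulocyte development, differed by 0.40 ± 0.19 and 0.38 ± 0.19 (SE).

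**Figure D4:**
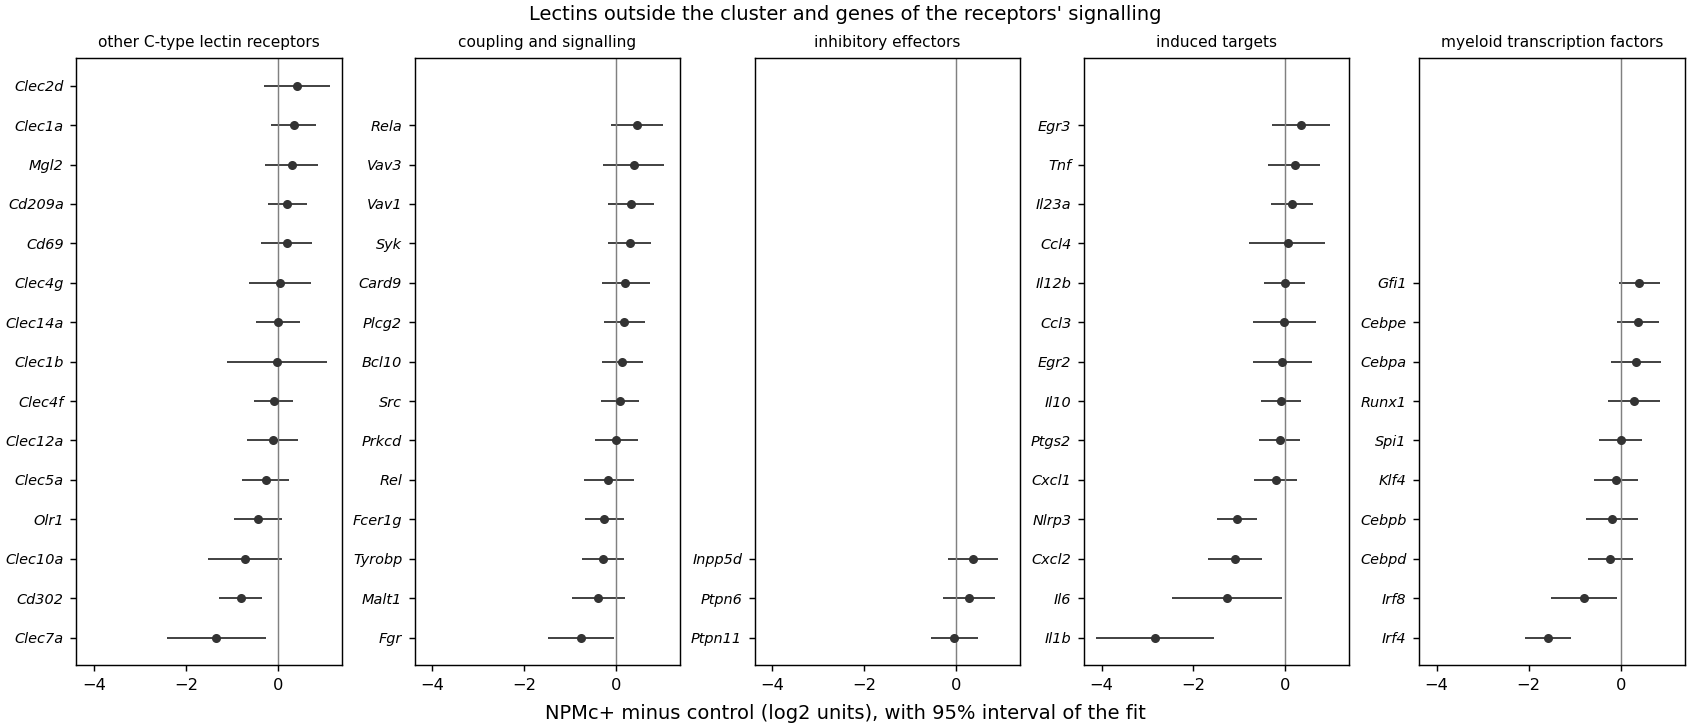
Mean difference between NPMc+ and control in log2 units (horizontal axis) with the 95% interval of the limma fit, over 3 pairs, for tested genes of the 5 lists around the Clec4 receptors. Most intervals include 0; those of Il1b, Il6, Cxcl2, Nlrp3, Irf4, Irf8, Fgr, Cd302 and Clec7a lie below it, and the intervals of Fcer1g, Syk, Card9 and Spi1 include it.

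Genes with the nearest patterns were found by the distance between their 3 pair differences and a reference. The search covered 14380 tested genes outside the members that are not predicted genes, clones or small RNAs. Against the members' median pair differences of -0.15, -1.12 and -0.88, the nearest were Klrb1, a lectin-like receptor gene of another family (-0.13, -1.14 and -0.94), Ahnak, Cecr2, Tcl1b2 and Rnd3, at distances of 0.0747 to 0.232 log2 units. The 5 nearest to Clec4a3 were farther from it, at 0.749 to 1.26: the chemokine gene Xcl1 (-2.26, -2.88 and -1.53), Cstdc4 of the stefin group, the B cell factor gene Ebf1, Ifitm6 and the killer cell lectin gene Klrd1 (-1.51, -2.89 and -1.34). The members' median is not the pattern of any single member, so nearness to it is not likeness to a member. How far each member lies from that median was not computed. The likeness rests on 3 numbers per gene.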

How the data were processed

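Each of 6 arrays measured LT-HSC RNA of 1 pool, 3 control and 3 NPMc+, grouped and numbered by the sample titles. The authors deposited log2 values of 41345 probe sets; the submitters' processing notes name RMA (background correction, normalization and probe summary), whose version, like any later step, is not given in the sources used here. In 100% of probe sets the pair means agreed within 0.001 (largest range 6.5e-05), and deviations of same-numbered arrays correlated at -1, so a replicate effect had been removed and only the pair differences carry independent spread.

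Names came from the platform annotation: 23521 probe sets had 1 symbol, 1814 several and 16010 none; 23328 matched RefSeq (GRCm38.p6), with 0 symbols changed. Genes below the 25th percentile of the mean were left out (16635 tested). limma 3.58.1 (lmFit and eBayes, two-sided; R 4.3.3, data.table version 1.17.8) used the replicate number as a block (2 residual and 4.54 prior degrees of freedom) with Benjamini-Hochberg adjustment over all genes tested and a threshold of 0.05; it was tested on simulated data. Lists are described by counts and medians. Members and lists were chosen with earlier results of these data known. Named genes are the members, up to 4 genes of each pathway list with the smallest p, Fcer1g, Syk, Card9, Npm1, neighbours within 250000 bases and the 5 nearest patterns; Xist and Spi1 were added after their values were seen, and marker genes are given by list only. Alternatives were no block, quantile normalization, other filters (none, 50th percentile), the mean of a gene's probe sets, an intensity trend and leaving out each pair. Figures used matplotlib 3.10.9 in Python 3.11.15 with pandas 2.3.3.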

Additional observations from a re-analysis of the deposited data

How the results depend on the processing

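The 6 tested members kept a negative difference under each of the alternatives run; Clec4b1, below the filter, turned to 0.10 without pair 3. Without the replicate block, which ignores how the pairs are tied and so overstates precision, limma called 828 genes at an adjusted p under 0.05 against 0, with 1638 genes lower and 2500 higher (unadjusted p under 0.05) against 503 and 989, and 5 of the 6 tested members lower at that level against 2. Clec4a1 and Clec4a3 were the 2 members past the adjusted threshold there. With the filter at the 50th percentile, Clec4a1 and Clec4n were left out of the fit. There 1 member was lower at a limma unadjusted p under 0.05, among 337 genes that were so. Leaving out each pair in turn gave 0 to 24 genes at a limma adjusted p under 0.05, the 24 without pair 3. Tested members lower at a limma unadjusted p under 0.05 numbered 2 to 5, most without pair 1. Of all 16635 genes tested, 435, 489 and 488 were lower at that level without pairs 1, 2 and 3. Members lower in all pairs left numbered 4 to 8, most without pair 1. The share of all genes lower in all pairs left was not counted, and fewer pairs make that easier to reach. The median of the tested members was -0.89, -0.44 and -0.78 without pairs 1, 2 and 3, and -0.72 after quantile normalization, against -0.66. The cause of these shifts was not tested. Of the lists, 4 medians moved beyond their spread over pairs: LT-HSC to 0.68 and dendritic cell to -0.72 at the 50th percentile, induced targets to -0.23 without pair 2, and T and NK cell to -0.36 without pair 3. Signal over background was not measured here.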
